A study of Mus musculus with 41 samples.

Results

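The very long neuronal adhesion genes described here are Csmd1, Csmd2, Csmd3, Lrp1b, Astn2, Pcdh9, Dlg2, Nrxn3 and Cntnap2, 9 of the 24410 gene symbols measured. They were chosen by symbol. Csmd1, Lrp1b, Astn2 and Pcdh9 were picked because their transcripts were lower in knockout cells of this series, and the other 5 were added as further very long neuronal genes. The comparisons of knockout with control cells are therefore a description, with no p-value, for those 4 genes, and are tested for the 5 added ones. All 9 had enough counts to be tested. RNA was sequenced from mouse R1-iCas9 embryonic stem cells, in which doxycycline induces Cas9, during differentiation into ventral spinal cord neural progenitors. Every group received doxycycline and then the same sequence of bFGF, the GSK3 inhibitor CHIR99021, retinoic acid and the Smoothened agonist SAG in N2B27 medium. Before differentiation the cells were transfected either with a non-targeting control (NT) or with a pool of 5 guides to 1 gene, which was Eed, Ezh2, Nr6a1 or Brd8, and RNA was taken at days 7, 9 and 11. Genotype and day together gave 15 groups for the 41 libraries, 11 of 3 libraries and 4 of 2 (Nr6a1 at each day and Brd8 at day 9). No selection of clones is described in the labels, so a knockout group is a culture that received the guides.

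Neural cells make a set of cell surface proteins whose genes are stretched over very long introns, so that a polymerase must travel far to complete 1 transcript. Many of these proteins sit at contacts between neurons or between neurons and glia, where they bind partners on the other membrane or anchor receptors beneath it. Eed and Ezh2 encode core subunits of Polycomb repressive complex 2 (PRC2), which methylates histone H3 at silenced genes, Brd8 encodes a bromodomain protein of NuA4/TIP60, a complex that acetylates histones, and Nr6a1 encodes an orphan nuclear receptor.

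The genes were placed on GRCm38, the assembly that mm10 names, by symbol in GENCODE M21. Csmd1 (ENSMUSG00000060924.15) lies at chr8:15892537-17535586 on the minus strand, Csmd2 (ENSMUSG00000028804.20) at chr4:127987857-128567656 on the plus strand and Csmd3 (ENSMUSG00000022311.15) at chr15:47580637-48792063 on the minus strand. They encode large proteins built of repeated CUB and sushi domains, the modules of complement regulators. Lrp1b (ENSMUSG00000049252.17), at chr2:40595246-42653624 on the minus strand, encodes an endocytic receptor of the LDL receptor family. Astn2 (ENSMUSG00000028373.16), at chr4:65380803-66404611 on the minus strand, encodes an astrotactin, a membrane protein known for its part in the migration of neurons along glia. Pcdh9 (ENSMUSG00000055421.8), at chr14:93013410-93890679 on the minus strand, encodes a protocadherin, a calcium-dependent adhesion protein. Nrxn3 (ENSMUSG00000066392.11), at chr12:88722876-90334935 on the plus strand, encodes a presynaptic neurexin. Cntnap2 (ENSMUSG00000039419.17), at chr6:45059357-47304213 on the plus strand, encodes Caspr2, a member of the neurexin superfamily that gathers potassium channels on axons. Dlg2 (ENSMUSG00000052572.17), at chr7:90476672-92449247 on the plus strand, encodes PSD-93, a scaffold inside the membrane rather than an adhesion molecule itself. The spans ran from 580 kb (Csmd2) to 2245 kb (Cntnap2), against a median of 18.3 kb over 19874 protein-coding genes of the table. Of those genes, 217 (1.09%) spanned over 500 kb and 54 spanned over 1 Mb, and 7 of the 9 genes described here were among the latter. The coding gene Hmgb4 lies within the span of Csmd2 and Trim32 within that of Astn2 on the opposite strand. The library kit keeps strand, but the strand setting of the counting is not given in the sources used here, so reads of Astn2 and Trim32 may not be fully separated.

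Library totals ran from 8581282 to 38240227 estimated counts. No pair of libraries was identical, and 2 libraries correlated below 0.95 with every other library of their group (at day 11, replicate 3 of Eed and replicate 3 of NT). Whether replicates were separate cultures is not in the labels, so p-values measure only the spread between these libraries, which may be technical. The transcript of the targeted gene does not test the edits, since small insertions and deletions need not lower it. In its own knockout Eed had 16.4 to 36.1 CPM against 13.6 to 26.3 in NT over the 3 days, Ezh2 153 to 290 against 118 to 294, Brd8 54.1 to 94.7 against 61.0 to 113 and Nr6a1 28.4 to 132 against 27.5 to 182. Within a day, Nr6a1 was lower without overlap at day 7 (114 to 132 against 171 to 182) and at day 9 (55.9 to 65.3 against 68.5 to 76.8). Brd8 was lower without overlap at day 7 (87.8 to 94.7 against 99.6 to 113). Eed lay above NT at days 7 and 11, and Ezh2 at day 11. None of the 4 was called lower in its own knockout at any day, and Ezh2 was called higher in Ezh2 cells at day 11 (log2 fold change 0.37; adjusted p = 0.00736), so the groups rest on their labels. CPM here is the count scaled to the library's size by edgeR after TMM normalisation. Progenitor markers (12 genes, among them Sox2 and Pax6) were counted in every group, with summed levels of 2665 to 3734 CPM per library, and neuron markers (10 genes) summed to 2433 to 6728 CPM, so both kinds of transcript were present throughout.

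In control cells all 9 genes rose between day 7 and day 11. A gene is called here when its adjusted p is under 0.05 (edgeR quasi-likelihood test, Benjamini-Hochberg over 15204 genes), and 21.9% of all genes tested were called higher in this comparison. The NT libraries also served as the controls against which 4 of the genes were picked. That choice can favour genes with high NT values at a day, so the NT tests of those 4 are not independent of it. Log2 fold changes ran from 1.42 (Csmd2) to 6.48 (Csmd1), with a median of 1.76, against a median of 0.00 over all genes tested. Each gene was higher in every day 11 library than in every day 7 library, as were 24.2% of all genes. These are bulk libraries, so more cells of a type and more RNA per cell cannot be told apart.

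Among the 3 CSMD genes, Csmd2 rose early and Csmd1 and Csmd3 mostly late. Csmd1 was low at day 7, with 1.79, 2.08 and 1.13 CPM in the 3 NT libraries, reached 12.9, 10.6 and 9.05 CPM at day 9 and 149, 161 and 144 CPM at day 11. Its rise was 6.40-fold from day 7 to day 9 (adjusted p = 4.42e-09) and a further 13.9-fold to day 11 (adjusted p = 1.24e-14), and no library of 1 day overlapped another day. Csmd2 was already at 31.4, 40.4 and 40.3 CPM at day 7, rose to 84.0, 79.2 and 90.2 CPM at day 9 (log2 fold change 1.18 ± 0.16, SE; adjusted p = 2.98e-07), and had 96.3, 112 and 89.4 CPM at day 11, where it overlapped day 9 (0.23 ± 0.15; adjusted p = 0.291). Most of the rise of Csmd2 thus came before day 9 and most of that of Csmd1 after it. Csmd3 had 2 to 16 counts per library at day 7 (0.773, 0.208 and 0.616 CPM) and 10.6, 8.44 and 4.43 CPM at day 11, a log2 fold change of 3.78 ± 0.65 (adjusted p = 6.83e-06). Its day 9 libraries (1.48, 0.551 and 1.06 CPM) overlapped those of day 7.

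The adhesion and migration genes Astn2 and Pcdh9 followed the early course of Csmd2. Astn2 went from 10.9, 15.1 and 14.3 CPM to 34.6, 29.0 and 34.9 CPM at day 9 (log2 fold change 1.30 ± 0.21; adjusted p = 5.22e-06) and 41.2, 38.7 and 45.9 CPM at day 11. Pcdh9 went from 53.2, 69.9 and 59.2 CPM to 149, 117 and 152 CPM at day 9 (1.20 ± 0.20; adjusted p = 8.48e-06) and 179, 153 and 157 CPM at day 11. Neither passed the test between days 9 and 11 (adjusted p = 0.199 and 0.408), although all 3 libraries of day 11 lay above those of day 9 for both. The receptor gene Lrp1b was the late and low counterpart: 2.51, 1.87 and 4.41 CPM at day 7 and 3.66, 1.74 and 7.01 CPM at day 9 overlapped, and 14.2, 10.7 and 12.3 CPM at day 11 did not. Its log2 fold change from day 9 to day 11 was 1.61 ± 0.54 (adjusted p = 0.0255), and this call was lost without NT replicate 1 or 2 of day 9 or replicate 1 of day 11 (adjusted p up to 0.156, log2 fold change 1.22 to 2.22 over the alternatives).

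Of the synaptic and axonal genes, Nrxn3 and Dlg2 rose in both intervals and Cntnap2 in the first. Nrxn3 had 33.3, 40.4 and 38.1 CPM at day 7, 60.3, 51.8 and 54.6 CPM at day 9 and 115, 133 and 129 CPM at day 11, so that the second step (log2 fold change 1.18 ± 0.15; adjusted p = 9.58e-08) was larger than the first (0.58 ± 0.15; adjusted p = 0.00309), a difference that was not tested. Dlg2 had 2.37, 5.93 and 3.49 CPM, then 6.70, 9.54 and 9.58 CPM, then 25.9, 25.2 and 25.7 CPM, with 3 nearly equal libraries at day 11. Both were without overlap between days. Cntnap2 rose from 12.8, 10.4 and 9.65 CPM to 22.1, 20.7 and 28.0 CPM at day 9 (1.10 ± 0.21; adjusted p = 0.000111) and had 35.8, 31.0 and 31.5 CPM at day 11 (0.48 ± 0.20 above day 9; adjusted p = 0.0897, and under the threshold, 0.0414, when only the groups compared entered the fit). In all, 7 of the 9 genes were called higher at day 9 than at day 7, where 14.5% of all genes were. From day 9 to day 11, 5 of 9 were, where 10.6% of all genes were. Of the 5 added genes alone, 4 and 3 were called in these intervals, and 5 from day 7 to day 11.

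**Figure D1:**
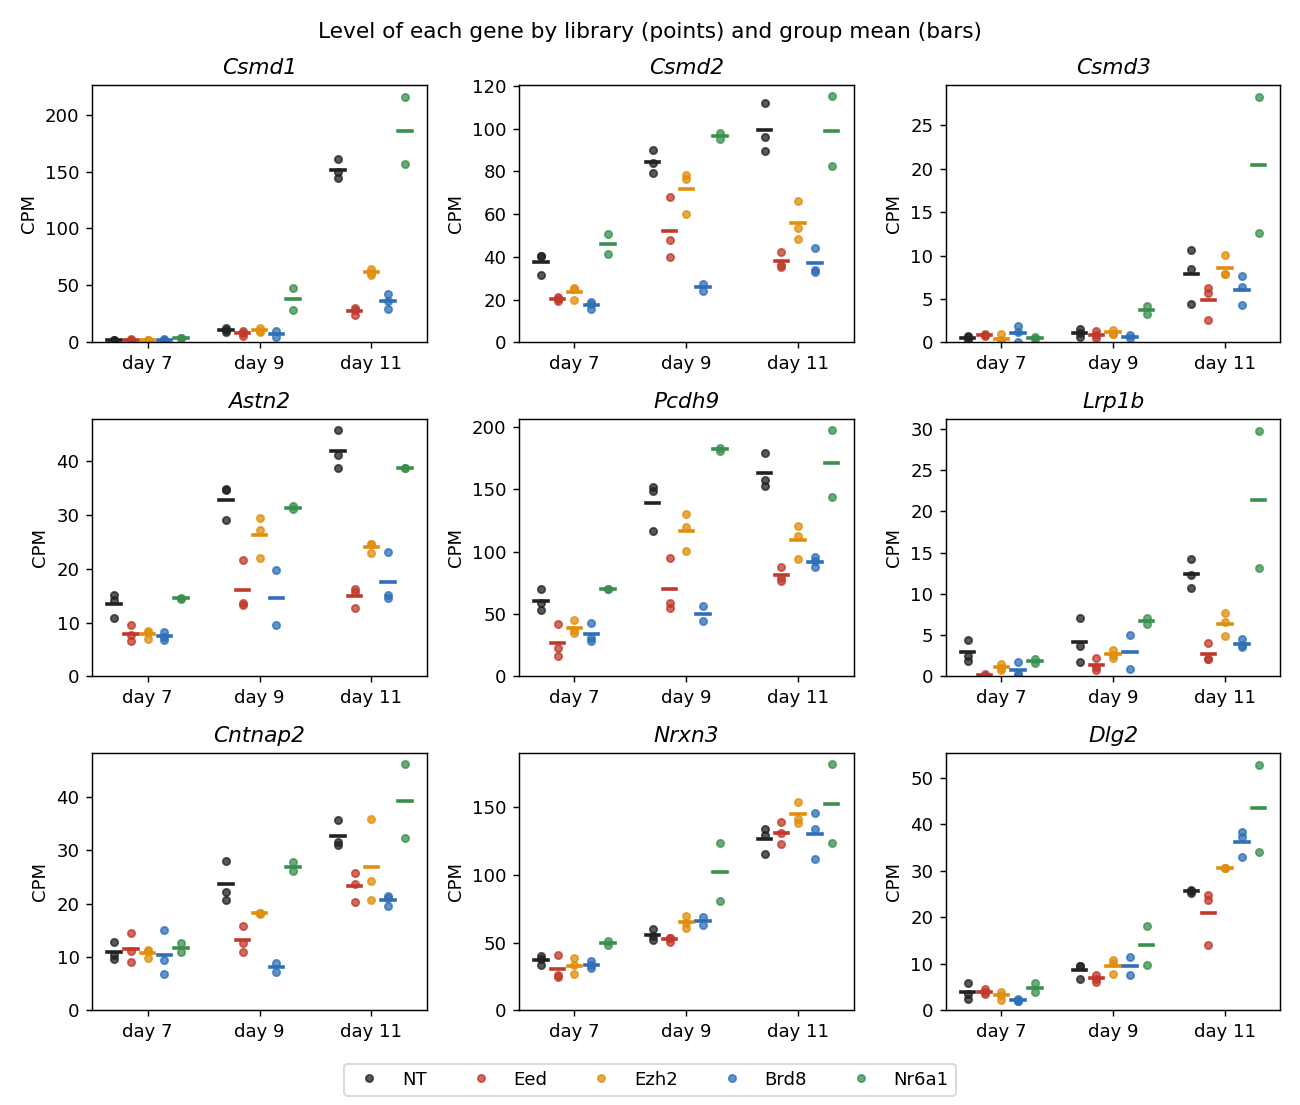
CPM (y axis) of each of the 9 genes in every library (points) with the group mean (bars), by day and genotype. In NT the genes are higher at day 11 than at day 7, and Csmd1 at day 11 separates NT and Nr6a1 (144 to 215 CPM) from Ezh2 (59.2 to 64.6), Brd8 and Eed (23.9 to 42.4).

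Levels of different genes were compared per length, as CPM per kb of exon in GENCODE M21 (a length the authors' annotation may not share). At day 7 in NT the order was Pcdh9 (8.96 ± 1.24, SD, n = 3), Nrxn3 (2.96 ± 0.286), Astn2 (2.70 ± 0.452), Csmd2 (2.19 ± 0.301), Cntnap2 (1.07 ± 0.158), Dlg2 (0.241 ± 0.112), Lrp1b (0.123 ± 0.0556), Csmd1 (0.0876 ± 0.0256) and Csmd3 (0.0315 ± 0.0173). The libraries of Nrxn3 and Astn2, of Astn2 and Csmd2, of Dlg2 and Lrp1b and of Lrp1b and Csmd1 overlapped at that day, so those neighbours are not ordered. By day 11 Csmd1 was at 7.95 ± 0.456. Its mean then lay below Pcdh9 (24.1 ± 2.10), Nrxn3 (9.99 ± 0.759) and Astn2 (8.45 ± 0.737) and above Csmd2 (5.81 ± 0.676), Cntnap2 (3.20 ± 0.257), Dlg2 (1.57 ± 0.0220), Lrp1b (0.521 ± 0.0755) and Csmd3 (0.464 ± 0.186). The day 11 libraries of Nrxn3 and Astn2, of Astn2 and Csmd1, and of Lrp1b and Csmd3 overlapped, so those neighbours are not ordered by these data.

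Each knockout was set against the NT libraries of its day, the question being how loss of a regulator bears on the course above. All comparisons of a day share the same NT libraries. At day 11 Csmd1, Lrp1b, Astn2, Pcdh9 and Csmd2 were lower in every Eed, Ezh2 and Brd8 library than in every NT library, Nrxn3 was not called in any of the 3 knockouts, and no gene of the 9 was lower without overlap in Nr6a1 cells. Among the 5 added genes, Csmd2 was called lower at all 3 days in Eed and Brd8 cells and at day 11 in Ezh2 cells, and Cntnap2 at day 9 in Eed cells and at days 9 and 11 in Brd8 cells. Csmd3, Dlg2 and Nrxn3 were called lower in none of the 12 comparisons by edgeR and in none by DESeq2. At an unadjusted p under 0.05, Dlg2 was lower in 1 of the 12 and Csmd3 and Nrxn3 in 0. Of all genes, edgeR called 5.76%, 2.16% and 10.6% lower in Eed at days 7, 9 and 11, and 3.45%, 7.81% and 7.48% in Brd8. In Ezh2 the shares were 0.0658%, 0% and 2.70%. There 932, 247 and 1171 genes were lower at an unadjusted p under 0.05, and 108, 0 and 595 by DESeq2. By edgeR few or no genes of any kind were thus called lower in Ezh2 at days 7 and 9 or in Nr6a1. In Nr6a1 cells 0% of all genes were called lower at day 7 by edgeR (439 genes at an unadjusted p under 0.05 and 12 by DESeq2), 0.0132% at day 9 and 0.0263% at day 11.

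Csmd1 is described first, for a contrast it was picked for. At day 7 the NT, Eed, Ezh2 and Brd8 libraries all lay between 1.09 and 2.62 CPM, and the 2 Nr6a1 libraries at 3.89 and 3.76. At day 9 Nr6a1 had 47.4 and 28.5 CPM against 9.05 to 12.9 in NT, while Eed (5.24 to 9.90), Brd8 (9.96 and 4.65) and Ezh2 (9.39 to 12.8) overlapped NT. At day 11 NT had 149, 161 and 144 CPM, Ezh2 61.1, 59.2 and 64.6, Brd8 36.5, 42.4 and 28.9, and Eed 30.3, 23.9 and 28.2. The 3 knockouts were thus below NT without overlap only at the last day, with Ezh2 between NT and the overlapping Brd8 and Eed libraries, and log2 fold changes of -1.30 ± 0.20 (Ezh2), -2.07 ± 0.21 (Brd8) and -2.46 ± 0.21 (Eed). Nr6a1 at day 11, with 215 and 156 CPM, overlapped NT. Markers of oligodendrocyte precursors (12 genes, among them Pdgfra, Olig1, Olig2 and Sox10) stood in the same order of groups at day 11: their summed level was 2900 to 2972 CPM in NT, 3027 to 3698 in Nr6a1, 1572 to 1697 in Ezh2, 1204 to 1313 in Brd8 and 879 to 1032 in Eed. None of the 12 was at 0 in all libraries of NT or Nr6a1 at that day, and Neu4 was at 0 in the other 3 groups. The summed level of astroglial markers (12 genes) stood in a like order, with 1257 to 1325 CPM in Nr6a1, 1053 to 1121 in NT, 814 to 877 in Ezh2, 694 to 781 in Brd8 and 610 to 764 in Eed, where Gfap and S100b were at 0. The single astroglial markers were split. Of the 11 tested, edgeR called 6 lower and 2 higher in Eed, 4 and 2 in Brd8 and 4 and 1 in Ezh2. Of all genes it called 10.6% lower and 13.3% higher in Eed, 7.48% and 10.3% in Brd8 and 2.70% and 5.22% in Ezh2. The part of these cells in the levels of Csmd1 was not tested.

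Csmd2, one of the added genes, was tested and lay below NT in Eed and Brd8 cells from day 7 on. Csmd1 had only 10 to 37 counts a library at day 7 outside Nr6a1, so it is not ordered in time against Csmd2. At day 7 Csmd2 had 19.6, 20.4 and 21.1 CPM in Eed, 15.7, 17.8 and 19.1 in Brd8 and 25.2, 19.8 and 25.0 in Ezh2. All lay below the NT libraries (31.4, 40.4 and 40.3). The log2 fold change was -0.87 ± 0.17 in Eed (adjusted p = 0.000636) and -1.08 ± 0.17 in Brd8 (adjusted p = 0.000162), in comparisons where 5.76% and 3.45% of all genes were called lower. In Ezh2 it was -0.67 ± 0.17 (adjusted p = 0.0755), in a comparison where 0.0658% of all genes were called lower, and 3 alternatives called it: DESeq2, a fit to these groups alone and one with no filter on low counts (adjusted p from 0.00023 to 0.509 over the alternatives). At day 11 the values were 42.3, 36.1 and 35.2 CPM in Eed (-1.38 ± 0.16; adjusted p = 2.3e-08; 10.6% of all genes called lower), 33.1, 44.2 and 33.7 in Brd8 (-1.42 ± 0.16; adjusted p = 2.67e-08; 7.48%) and 66.2, 53.5 and 48.4 in Ezh2 (-0.83 ± 0.16; adjusted p = 0.000433; 2.70%), against 96.3, 112 and 89.4 in NT. All 9 of these knockout libraries lay below NT, with Ezh2 nearest to it.

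At day 9 the Csmd2 values in Eed cells were uneven. Replicate 1 had 68.0 CPM, near the lowest NT library (79.2), and replicates 2 and 3 had 47.8 and 40.0. The log2 fold change was -0.69 ± 0.15 (adjusted p = 0.00643; 2.16% of all genes called lower), and the call was lost without Eed replicate 2 or 3 or NT replicate 3 (-0.53 to -0.95 over the alternatives, adjusted p up to 0.132). Brd8 cells had 27.5 and 24.0 CPM at day 9, the largest difference of Csmd2 from NT (-1.72 ± 0.19; adjusted p = 1.38e-07; 7.81% of all genes called lower). Ezh2 had 76.6, 78.3 and 60.1 CPM (-0.24 ± 0.15; adjusted p = 1, in a comparison where edgeR called 0% of all genes lower, DESeq2 0, and 247 were lower at an unadjusted p under 0.05). Nr6a1 stayed near NT, with 41.4 and 50.8 CPM at day 7, 98.0 and 95 at day 9 and 116 and 82.7 at day 11 (adjusted p of 0.735 or more).

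Csmd3, the least abundant of the 3, gave no call in any knockout. At day 11 Eed had 6.29, 2.62 and 5.69 CPM, Brd8 6.33, 4.30 and 7.60 and Ezh2 10.0, 7.90 and 7.86, all overlapping NT (10.6, 8.44 and 4.43). The 2 Nr6a1 libraries lay above NT at day 9 (4.20 and 3.26 CPM against 0.551 to 1.48) and at day 11 (28.2 and 12.6 CPM), with log2 fold changes of 1.89 ± 0.64 (adjusted p = 0.418) and 1.38 ± 0.58 (adjusted p = 0.495). The wide errors go with low counts: 43 in all 3 NT libraries of day 9 and 272 in those of day 11. Without the low-count filter the day 9 value passed (adjusted p = 0.0491).

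Astn2 and Pcdh9 had lower values from day 7 on in Eed and Brd8 cells, and both are given without a test since they were picked for it. Astn2 at day 7 had 6.52, 7.65 and 9.56 CPM in Eed, 7.36, 8.29 and 6.72 in Brd8 and 8.03, 7.03 and 8.40 in Ezh2, against 10.9, 15.1 and 14.3 in NT. At day 11 it had 16.2, 12.7 and 15.8 CPM in Eed, 15.2, 23.1 and 14.6 in Brd8 and 24.6, 22.9 and 24.6 in Ezh2, against 41.2, 38.7 and 45.9 in NT. No library of these 3 knockouts overlapped NT at either day, and the log2 fold change went from -0.76 ± 0.22 to -1.49 ± 0.20 in Eed, from -0.84 ± 0.22 to -1.24 ± 0.20 in Brd8 and from -0.76 ± 0.22 to -0.80 ± 0.20 in Ezh2. Nr6a1 libraries were within or next to the NT range (14.6 and 14.5 CPM at day 7, 31.2 and 31.6 at day 9, 38.8 and 38.7 at day 11). Pcdh9 at day 7 had 22.6, 16.5 and 41.8 CPM in Eed, with replicate 3 apart from the other two, 28.1, 30.9 and 42.8 in Brd8 and 34.7, 37.4 and 45.2 in Ezh2, against 53.2, 69.9 and 59.2 in NT. At day 11 it had 87.6, 79.1 and 76.8 CPM in Eed, 87.8, 92.3 and 95.5 in Brd8 and 113, 93.9 and 121 in Ezh2, against 179, 153 and 157 in NT. The groups again did not overlap, with log2 fold changes at day 11 of -1.0 ± 0.19 (Eed), -0.83 ± 0.19 (Brd8) and -0.58 ± 0.19 (Ezh2).

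At day 9 both genes were below NT in Eed and Brd8 cells, and Eed replicate 1 was again the Eed library nearest to NT. Astn2 had 21.6, 13.6 and 13.3 CPM in Eed and 19.8 and 9.50 in Brd8, against 29.0 to 34.9 in NT. Pcdh9 had 95.2, 59.1 and 55.0 CPM in Eed and 56.6 and 44.2 in Brd8, against 117 to 152 in NT. Ezh2 overlapped NT for both (22 to 29.4 CPM for Astn2, 101 to 130 for Pcdh9). Neuron markers were lower at day 7 in the same knockouts in which Csmd2, Astn2 and Pcdh9 were: the 10 genes summed to 4072 to 4285 CPM in NT, 3353 to 3798 in Ezh2, 2782 to 3221 in Brd8, 2433 to 3061 in Eed and 4621 to 5039 in Nr6a1, with none at 0. At day 9 they summed to 5698 to 6672 CPM in NT, 3708 to 4551 in Brd8, 4270 to 5504 in Eed and 5810 to 6050 in Ezh2. At day 11 they summed to 5128 to 5529 in NT, 4625 to 5324 in Brd8, 4428 to 4635 in Eed and 5238 to 5756 in Ezh2. In these markers Brd8 and Ezh2 thus overlapped NT at day 11 and Eed lay below it. The part of neurons in the levels of Csmd2, Astn2 and Pcdh9 was not tested.

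The upstream sequences of Astn2 and Pcdh9 are shown because these genes moved together over the 15 groups (Pearson r = 0.968) and each has a single RefSeq start region; those of Nrxn3 and Dlg2 are shown as the pair with the closest course of all. Each line gives the 250 bases before a RefSeq start site (GRCm38.p6), 5′ to 3′ on the gene's strand, with CpG dinucleotides in capitals. Astn2 is at chr4:66404484-66404733 (minus strand), Pcdh9 at chr14:93890680-93890929 (minus strand), Nrxn3 at chr12:88794254-88794503 and Dlg2 at chr7:91090536-91090785 (both plus strand).
Astn2: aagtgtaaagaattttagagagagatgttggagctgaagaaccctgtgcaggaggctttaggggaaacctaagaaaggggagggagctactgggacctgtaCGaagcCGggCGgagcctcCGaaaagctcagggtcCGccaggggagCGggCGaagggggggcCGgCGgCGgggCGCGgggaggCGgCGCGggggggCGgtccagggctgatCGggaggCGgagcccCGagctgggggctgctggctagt
Pcdh9: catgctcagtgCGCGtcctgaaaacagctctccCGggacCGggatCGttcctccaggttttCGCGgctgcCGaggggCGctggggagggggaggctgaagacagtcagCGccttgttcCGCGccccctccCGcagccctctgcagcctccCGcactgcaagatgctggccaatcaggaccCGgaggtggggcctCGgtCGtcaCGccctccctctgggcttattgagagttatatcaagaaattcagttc
Nrxn3: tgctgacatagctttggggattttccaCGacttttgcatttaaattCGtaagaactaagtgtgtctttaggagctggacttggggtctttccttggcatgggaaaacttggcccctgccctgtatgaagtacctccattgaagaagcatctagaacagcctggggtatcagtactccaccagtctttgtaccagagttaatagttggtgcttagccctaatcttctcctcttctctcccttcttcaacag
Dlg2: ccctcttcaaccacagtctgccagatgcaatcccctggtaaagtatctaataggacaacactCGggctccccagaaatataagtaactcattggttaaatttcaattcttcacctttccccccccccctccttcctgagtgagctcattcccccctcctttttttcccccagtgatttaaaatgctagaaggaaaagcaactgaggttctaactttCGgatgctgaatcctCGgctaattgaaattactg
The Astn2 and Pcdh9 windows hold 19 and 18 CpG dinucleotides, and 19.7% and 21.7% of 32851 RefSeq promoter windows hold as many or more, with a median of 6. The Nrxn3 and Dlg2 windows hold 2 and 3, numbers that 81.2% and 71.0% of windows reach. Nrxn3 and Dlg2 each have 2 further listed starts, with 5 and 12 CpG for Nrxn3 and 1 and 2 for Dlg2, and Cntnap2 has windows with 13 and 3. Counts per gene do not separate transcripts by start, so these windows are not tied to the levels above. Searched on both strands, the motif CCAAT is in the Pcdh9 and Dlg2 windows shown and in neither of the other pair (33.8% of all windows of this length hold it). TATAAA is in none of the 4 windows shown (12.4% of all windows hold it). The same holds for CACGTG, which has a CpG within it (6.02% of all windows). CAGCTG is also in none of the 4 (13.0% of all windows). Promoter windows were matched for 5 of the 9 genes, not for Csmd1, Csmd2, Csmd3 or Lrp1b.

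Lrp1b had its lowest group mean in Eed cells at every day, again as a description, and Eed and Brd8 libraries overlapped at each day. At day 7 it had 1, 0 and 3 counts in the 3 Eed libraries against 52, 18 and 43 in NT, a log2 fold change of -4.39 ± 0.84 that rests on 4 counts in the Eed group. Brd8 had 1.80, 0.210 and 0.237 CPM and Ezh2 1.45, 0.713 and 1.06, against 2.51, 1.87 and 4.41 in NT, so that all 3 knockouts lay below every NT library. At day 9 Eed (2.24, 1.11 and 0.730 CPM), Ezh2 (2.20, 2.64 and 3.23) and Brd8 (5.07 and 0.868) overlapped NT (3.66, 1.74 and 7.01). At day 11 Eed had 4.0, 2.05 and 2.08 CPM (-2.16 ± 0.55), Brd8 4.56, 3.74 and 3.55 (-1.65 ± 0.54) and Ezh2 4.91, 6.61 and 7.69 (-0.95 ± 0.52), each below the NT values of 14.2, 10.7 and 12.3. Nr6a1 was on both sides of NT at that day, with 29.7 and 13.2 CPM. Outside Nr6a1 at day 11, Lrp1b had at most 184 counts in a library.

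Among the synaptic and axonal genes, which were tested, Cntnap2 differed in Eed and Brd8 cells and Nrxn3 and Dlg2 did not pass as lower anywhere. Cntnap2 at day 7 overlapped NT in every knockout. At day 9 it had 7.20 and 8.94 CPM in Brd8 (-1.54 ± 0.25; adjusted p = 3.66e-05) and 15.9, 11 and 12.6 in Eed (-0.83 ± 0.21; adjusted p = 0.015), against 22.1, 20.7 and 28.0 in NT. The Eed call was lost without Eed replicate 2 or 3 or NT replicate 3 (-0.69 to -1.0 over the alternatives, adjusted p up to 0.126). At day 11 Brd8 had 19.6, 21.0 and 21.5 CPM (-0.66 ± 0.21; adjusted p = 0.0206, lost without Brd8 replicate 1 or NT replicate 1, adjusted p up to 0.0746) and Eed 23.7, 20.2 and 25.8 (-0.50 ± 0.21; adjusted p = 0.0745), all below NT (35.8, 31.0 and 31.5). Ezh2 libraries at day 11 spread from 20.7 to 35.9 CPM and overlapped NT.

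Nrxn3 was not called lower in any knockout. At day 11 it had 123, 131 and 138 CPM in Eed, 153, 141 and 138 in Ezh2 and 112, 133 and 145 in Brd8, against 115, 133 and 129 in NT, with log2 fold changes of 0.05 ± 0.14, 0.20 ± 0.14 and 0.05 ± 0.14 (adjusted p of 0.477 or more). The Eed and Brd8 libraries overlapped NT and the 3 Ezh2 libraries lay above it. At the same day and in the same libraries Csmd1 and Csmd2 were lower by the amounts given above. In Nr6a1 cells Nrxn3 rose at day 9, with 123 and 80.5 CPM against 60.3, 51.8 and 54.6 in NT (0.88 ± 0.16; adjusted p = 0.00891), in a comparison where 0.138% of all genes were called higher. That call was lost without Nr6a1 replicate 1 or NT replicate 2 or 3 (0.54 to 1.15 over the alternatives, adjusted p up to 1). Dlg2 at day 11 had 38.4, 37.2 and 32.9 CPM in Brd8, 52.7 and 34.1 in Nr6a1 and 30.5, 30.5 and 30.7 in Ezh2, each above the NT values of 25.9, 25.2 and 25.7, and 24.9, 23.7 and 14.1 in Eed, each below them. None of these passed (log2 fold changes 0.50 ± 0.24, 0.76 ± 0.26, 0.26 ± 0.24 and -0.28 ± 0.24; adjusted p of 0.158 or more).

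**Figure D2:**
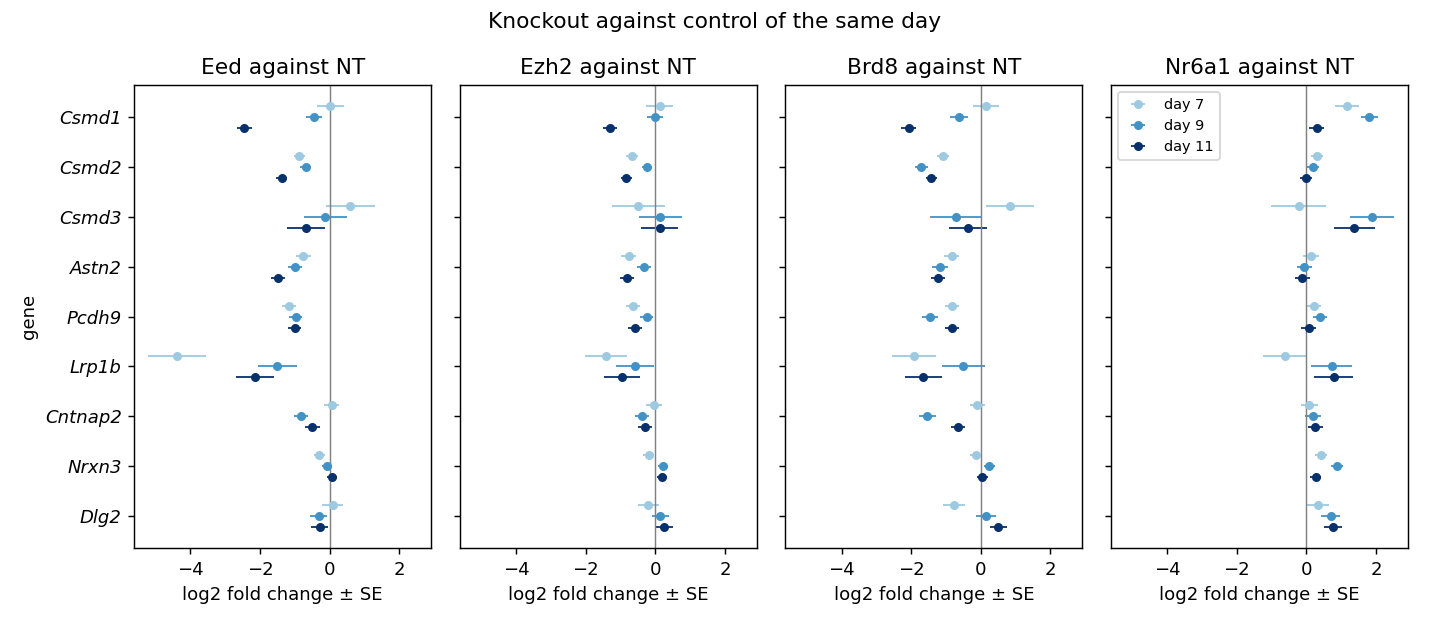
Log2 fold change ± SE (x axis) of each gene in each knockout against NT of the same day, 1 panel a knockout and 1 colour a day. At day 11 Csmd1 is at -2.46 in Eed, -2.07 in Brd8 and -1.30 in Ezh2, while Nrxn3 lies between 0.05 and 0.27 in the 4 knockouts.

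Counted over the 9 genes, 7 were lower without overlap in Eed cells at day 11, 6 in Brd8 and 5 in Ezh2, against 15.4%, 13.2% and 10.2% of all genes. At days 7 and 9 the counts were 4 and 4 in Eed (14.8% and 12.3% of all genes), 4 and 4 in Brd8 (13.6% and 22.2%) and 4 and 2 in Ezh2 (10.6% and 5.16%). In Nr6a1 cells 4, 6 and 2 of the 9 were higher without overlap at days 7, 9 and 11, against 14.6%, 13.6% and 13.2% of all genes, and 0 were lower at day 11, against 7.62%. Nothing is read from these counts, since 4 of the 9 were picked on this contrast. The median log2 fold change at day 11 was -1.0 in Eed, -0.83 in Brd8, -0.58 in Ezh2 and 0.27 in Nr6a1, against 0.02 to 0.03 over all genes tested. Over the 5 added genes alone it was -0.50 in Eed, -0.37 in Brd8, 0.13 in Ezh2 and 0.27 in Nr6a1. At day 7 the median of the 5 was 0.057 in Eed, -0.15 in Brd8, -0.20 in Ezh2 and 0.32 in Nr6a1, and at day 9 -0.32, -0.71, 0.15 and 0.70, so that in Eed at day 7 and in Ezh2 at days 9 and 11 its sign differed from that over the 9. The Nr6a1 median rests on its 2 libraries: it was -0.02 without replicate 1 and 0.51 without replicate 3. At days 7 and 9 the medians over the 9 also moved with single libraries. Eed was at -0.30 at day 7 (-0.55 with replicate 2 left out, -0.17 with replicate 3 and -0.19 with replicate 1) and -0.69 at day 9. Ezh2 was at -0.48 at day 7 (-0.20 without Ezh2 replicate 2) and -0.24 at day 9 (-0.12 without Ezh2 replicate 3 or NT replicate 3). Brd8 was at -0.76 at day 7 (-0.35 without NT replicate 2) and -0.71 at day 9, where its 2 libraries differ (-1.40 without replicate 1, -0.32 without replicate 2). Nr6a1 was at 0.21 at day 7 (0.32 without NT replicate 2, 0.12 without Nr6a1 replicate 2) and 0.70 at day 9 (0.40 without Nr6a1 replicate 1, 0.34 without NT replicate 2). Summed markers of tissues outside the neural lineage also differed from NT in some knockouts at day 11. Muscle genes (8, among them Myog and Des) summed to 199 to 300 CPM in Brd8, 111 to 172 in Eed and 64.9 to 92.5 in Ezh2. They summed to 45.1 to 50.8 in Nr6a1 and 2.25 to 19.5 in NT. Epithelial genes (8, among them Krt8 and Epcam) summed to 177 to 350 CPM in Eed, 7.56 to 34.7 in Brd8, 13.4 to 47.0 in Ezh2, 29.5 to 31.4 in Nr6a1 and 14.8 to 23.7 in NT. Neural crest genes (8) summed to 534 to 661 CPM in Brd8, 445 to 518 in Eed, 312 to 475 in Ezh2, 258 to 305 in Nr6a1 and 274 to 320 in NT. The epithelial sums of Brd8 and Ezh2 and the crest sums of Ezh2 and Nr6a1 overlapped NT. Of the 8 crest genes edgeR called 5 higher and 1 lower in Eed, 4 and 0 in Brd8 and 3 and 1 in Ezh2. Of all genes it called 13.3% higher and 10.6% lower in Eed, 10.3% and 7.48% in Brd8 and 5.22% and 2.70% in Ezh2. Sox10 is both a crest gene here and an oligodendrocyte precursor marker above. The part of these markers in the differences of the 9 genes was not tested.

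The knockouts were also compared with each other. Eed and Ezh2 are subunits of 1 complex, and at day 11 all 9 genes had lower values in Eed than in Ezh2 cells. Some of the 9 were picked on knockout libraries, and the share of all genes with lower values was not counted. The median log2 fold change was -0.55 over the 9 and -0.54 over the added genes. Lower values were not particular to them. The median was -0.41 over 40 other very long neuronal genes (listed below), -0.26 over other genes above 500 kb and -0.01 over all genes tested. Csmd1 was at -1.16 ± 0.21, Lrp1b at -1.21 ± 0.54, Astn2 at -0.69 ± 0.20 and Pcdh9 at -0.42 ± 0.19. Of the added genes Csmd2 was called (-0.55 ± 0.16; adjusted p = 0.0457; 1.35% of all genes called lower), a call lost in 9 of 13 alternatives, and Dlg2 (-0.54 ± 0.24), Csmd3 (-0.81 ± 0.54), Nrxn3 (-0.15 ± 0.14) and Cntnap2 (-0.21 ± 0.20) were not (adjusted p of 0.239 or more). Brd8 and Eed cells differed in Csmd2 at day 9, where it was lower in Brd8 (-1.03 ± 0.18; adjusted p = 0.0102; 0.105% of all genes called lower). That call was lost with only the groups compared and without Brd8 replicate 2 or Eed replicate 1, the Eed library nearest to NT. At day 11 none of the 5 added genes passed between Brd8 and Eed by edgeR (0.342% of all genes were called in either direction) or by DESeq2, 1 was higher at an unadjusted p under 0.05, and Dlg2 had the largest difference, with all Brd8 libraries above all Eed libraries (0.78 ± 0.24; adjusted p = 0.203).

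Within each knockout the 9 genes were again higher at day 11 than at day 7. For the 5 added genes all 20 tests passed, where 21.7% of all genes were called higher in Eed, 20.2% in Ezh2, 21.6% in Brd8 and 16.6% in Nr6a1. Nrxn3 rose 4.31-fold in Eed, 4.41-fold in Ezh2, 3.89-fold in Brd8 and 3.06-fold in Nr6a1, against 3.39-fold in NT. Dlg2 rose 16.2-fold in Brd8, 9.27-fold in Ezh2, 9.13-fold in Nr6a1 and 5.22-fold in Eed, against 6.75-fold in NT. Csmd2 rose 1.87-fold in Eed, 2.12-fold in Brd8, 2.14-fold in Nr6a1 and 2.39-fold in Ezh2, against 2.67-fold in NT. Tested as the knockout's effect at day 11 minus that at day 7, none of the 20 differences of the added genes passed in edgeR. At an unadjusted p under 0.05, Csmd2 differed in 1 of its 4 and Dlg2 in 1 of its 4, and DESeq2 called the latter. Of all genes, 6.32% were called in either direction for Eed, 1.41% for Ezh2, 4.55% for Brd8 and 0.112% for Nr6a1. The nearest was Dlg2 in Brd8 (1.26 ± 0.39; adjusted p = 0.0574), which DESeq2 called, as did the fits without NT replicate 1 of day 7 and with no filter on low counts (adjusted p from 0.0171 to 0.291 over the alternatives). For Csmd1, described without a test, the rise was 89.3-fold in NT, 48.7-fold in Nr6a1, 33.4-fold in Ezh2, 19.1-fold in Brd8 and 16.0-fold in Eed.

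The log2 CPM of the 9 genes was compared over the 15 group means, which share days and genotypes and are not independent. The closest pairs were Dlg2 with Nrxn3 (Pearson r = 0.972), Astn2 with Pcdh9 (0.968) and Csmd2 with Astn2 (0.967). Of its relatives, Csmd1 was close to Csmd3 (0.942), about as close as to Nrxn3 (0.952), and less so to Csmd2 (0.753), and Csmd2 with Csmd3 was the least alike pair (0.594). Outside the list, the genes whose course was most like the mean of the 9 standardised profiles included Nbea (r = 0.997), Fbxo41 (0.993), Dscam (0.992) and Gnal (0.991). Nbea and Dscam span 559 and 580 kb, and Fbxo41 and Gnal 33.4 and 139 kb.

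Other very long neuronal genes, a list of 40 chosen with earlier results of these data known, also rose over time. In NT from day 7 to day 11, 31 of 40 rose and 2 fell, with a median log2 fold change of 1.80. The kinase receptor gene Erbb4 rose from 8.55 ± 1.21 to 73.5 ± 7.44 CPM (SD, n = 3; log2 fold change 3.12; adjusted p = 1.75e-15). In Eed cells 10, 5 and 22 of the 40 were called lower at days 7, 9 and 11 and 0, 0 and 1 higher (medians -0.38, -0.31 and -0.65). In Brd8 cells 6, 13 and 13 were called lower and 0, 1 and 1 higher (medians -0.26, -0.54 and -0.37). In Ezh2 cells at day 11, 4 were called lower and 1 higher, and in Nr6a1 cells 0 in either direction at each day (edgeR; medians 0.27, 0.29 and 0.35). At an unadjusted p under 0.05, 10, 11 and 7 of the 40 were higher in Nr6a1 cells and 0, 1 and 2 lower, and DESeq2 called 1 higher at day 7 and 0 at the other days. Of all genes, 21.9% rose and 23.3% fell in NT. At days 7, 9 and 11 those called lower were 5.76%, 2.16% and 10.6% in Eed and 3.45%, 7.81% and 7.48% in Brd8. Those called higher were 2.90%, 2.99% and 13.3% in Eed, 1.30%, 7.72% and 10.3% in Brd8 and 0.145%, 0.138% and 0.0526% in Nr6a1. In Ezh2 at day 11, 2.70% were called lower and 5.22% higher. The adhesion gene Lsamp was at 12 ± 2.81 CPM in Eed and 39.7 ± 5.15 in NT at day 11 (-1.71; adjusted p = 7.96e-07), and the channel subunit gene Dpp6 at 11.7 ± 3.02 and 35.4 ± 6.70 (-1.58; adjusted p = 2.2e-06). The guidance receptor gene Robo1 went the other way in Brd8 cells, at 402 ± 32.3 against 286 ± 27.1 CPM at day 11 (0.49; adjusted p = 3.67e-06).

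Relatives and binding partners of the 9 genes made a second list (29 genes: astrotactin 1, LDL receptor relatives, protocadherins, DLG scaffolds, neurexins, contactins and their associated proteins, neuroligins, LRRTMs and Cask). In NT 21 rose and 3 fell from day 7 to day 11 (median 1.07), where 21.9% and 23.3% of all genes did. The relative of Astn2, Astn1, rose from 112 ± 5.50 to 441 ± 43.2 CPM (1.98; adjusted p = 5.44e-16), and Nlgn3, a neuroligin that binds neurexins, from 5.18 ± 0.580 to 76.0 ± 3.24 CPM (3.88; adjusted p = 1.07e-14). The axonal contactin Cntn2 fell, from 973 ± 26.4 to 210 ± 2.03 CPM (-2.21; adjusted p = 2.44e-14). At day 11, 12 of the 29 were called lower and 3 higher in Eed, 9 and 3 in Brd8, 4 and 1 in Ezh2 and 0 and 0 in Nr6a1 (edgeR; medians -0.32, -0.12, -0.09 and 0.25). In Nr6a1 cells 7 were higher and 1 lower at an unadjusted p under 0.05, and DESeq2 called 2 higher. Of all genes, edgeR called 10.6% lower and 13.3% higher in Eed at day 11, and 7.48% and 10.3% in Brd8. In Ezh2 the shares were 2.70% and 5.22%, and in Nr6a1 0.0263% and 0.0526%. Nothing is read from the counts of relatives called higher. Astn1 was at 192 ± 19.3 CPM in Eed (-1.20; adjusted p = 1.88e-09) and 249 ± 13.7 in Brd8 (-0.83; adjusted p = 2.77e-06), and Nlgn3 at 22.4 ± 3.54 in Eed (-1.76; adjusted p = 5.93e-07) and 24.5 ± 2.49 in Brd8 (-1.63; adjusted p = 3.01e-06). Some genes, among them Pcdh7 and Nlgn1, stand in both lists.

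Pan-neuronal genes (20, among them Tubb3, Dcx, Map2 and Elavl2, with a median span of 60.6 kb) were called lower mostly at the earlier days. The list includes the 10 neuron markers summed above, so it is not a separate result from theirs. In Eed cells 16 of 20 were called lower at day 7, 5 at day 9 and 6 at day 11, with medians of -0.63, -0.33 and -0.23, and in Brd8 cells 12, 16 and 3, with medians of -0.48, -0.65 and -0.06. Of all genes, 5.76%, 2.16% and 10.6% were called lower in Eed at these days, and 3.45%, 7.81% and 7.48% in Brd8. The RNA-binding protein gene Elavl2 was at 146 ± 3.92 CPM in Eed and 245 ± 12.1 in NT at day 7 (-0.74; adjusted p = 3.82e-06). From day 7 to day 11 in NT 10 of the 20 pan-neuronal genes rose and 4 fell (median 0.36), where 21.9% and 23.3% of all genes did. Very long genes that are expressed in many tissues (16 genes, among them Fhit and Dmd) had small negative medians. Their median span was 597 kb over the 15 with a span, against 1087 kb for the other very long neuronal genes. The lists are thus not matched for length. In Eed cells 0, 2 and 4 of the 16 were called lower at days 7, 9 and 11 (medians -0.11, -0.04 and -0.09). At day 7 in Eed, 4 were lower at an unadjusted p under 0.05 and 0 by DESeq2. In Brd8 cells 1, 2 and 2 were called lower (-0.07, -0.10 and -0.14). In Ezh2 cells at day 11, 2 were called lower (median -0.12), where 2.70% of all genes were. The other very long neuronal genes had a median of -0.17 in that comparison. Medians over all genes tested were within 0.03 of 0 in the Eed and Brd8 comparisons, and 0.03 in Ezh2 at day 11. Over the 16, 7 rose and 3 fell in NT from day 7 to day 11 (median 0.26), where 21.9% and 23.3% of all genes did.

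**Figure D3:**
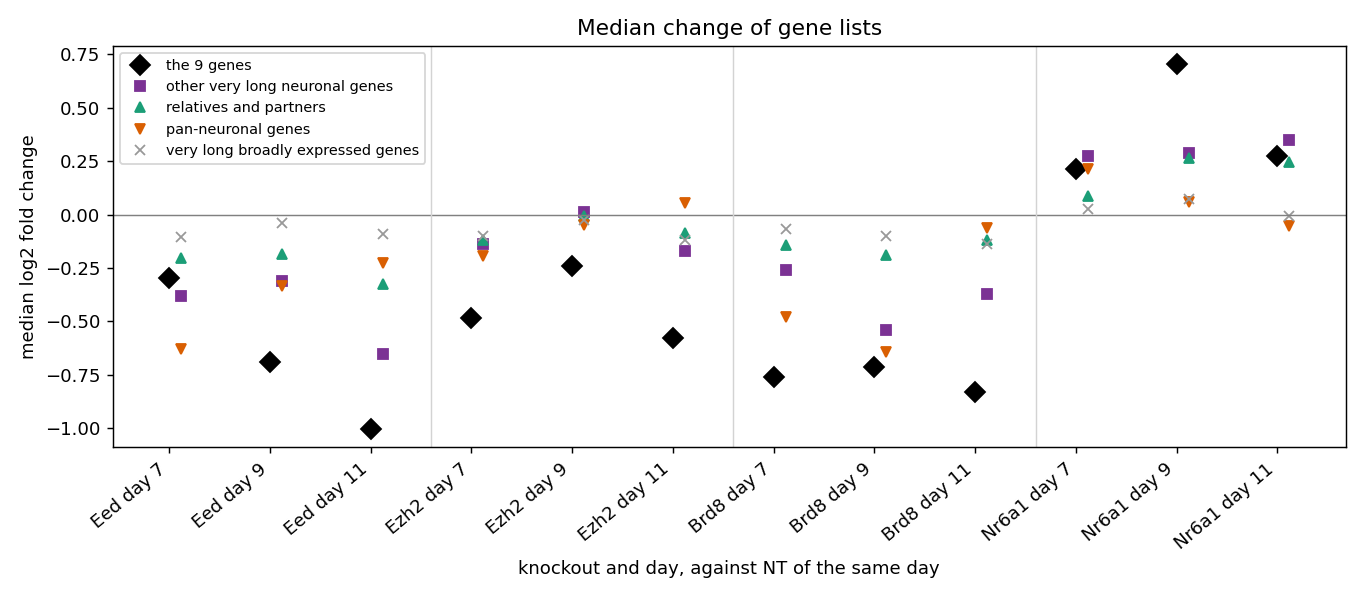
Median log2 fold change (y axis) of the 9 genes and of 4 gene lists in each knockout and day against NT (x axis). The lists are not matched for gene span. At day 11 in Eed the 9 genes are at -1.0, other very long neuronal genes at -0.65, relatives and partners at -0.32, pan-neuronal genes at -0.23 and very long broadly expressed genes at -0.09; 4 of the 9 were picked on these contrasts.

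The genes were also placed among others of like length. Spans were found for 95.9% of genes tested. Of the 203 other genes over 500 kb, 61.6% were called higher in NT at day 11 than at day 7, with a median log2 fold change of 1.06, and of the 6483 genes under 20 kb 15.8%, with a median of -0.08. In Eed cells at day 11, 35% of the genes over 500 kb were called lower and 3.94% higher (median -0.39), against 6.02% and 14.4% of those under 20 kb (median 0.09). In Brd8 cells at day 11 the longest class had 26.1% called lower and 5.42% higher (median -0.33). Genes under 20 kb had 4.07% and 10.7%. In Ezh2 cells the longest class had 7.39% and 1.97% (median -0.17), against 1.26% and 5.98%. Of genes of 100 to 200 and of 200 to 500 kb, 21.2% and 27.2% were called lower in Eed at day 11. These shares were 16.4% and 20.3% in Brd8 and 6.99% and 7.62% in Ezh2. Of all genes, 10.6%, 7.48% and 2.70% were called lower in Eed, Brd8 and Ezh2. In Nr6a1 cells edgeR called 0% of the longest class lower (median 0.15), and 0.0263% of all genes. There 8 of the 203 were lower at an unadjusted p under 0.05 and 1 by DESeq2. Of the 40 very long neuronal genes 39 are part of this class, as are 9 of the broadly expressed ones, and the span of a gene was not separated from where it is expressed.

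**Figure D4:**
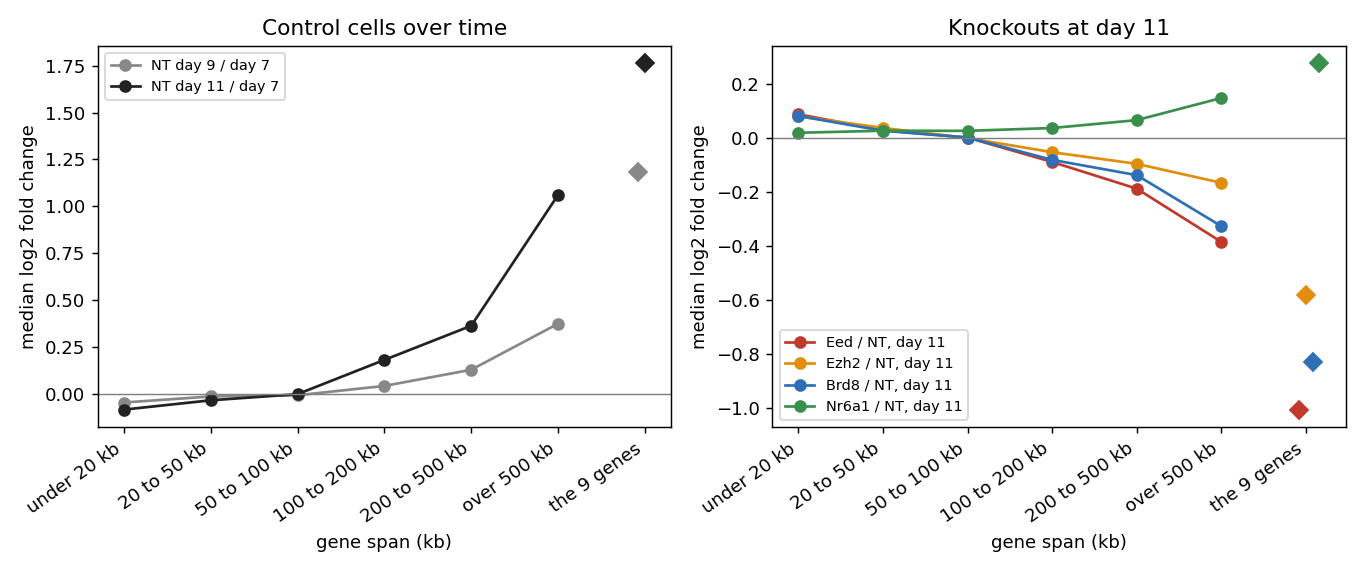
Median log2 fold change (y axis) by class of gene span (x axis), without the 9 genes, in NT over time (left) and in each knockout at day 11 (right), with the median of the 9 genes as diamonds. The class over 500 kb is at 1.06 in NT from day 7 to day 11, against 1.76 for the 9, and at -0.39 in Eed at day 11, against -1.0 for the 9, of which 4 were picked on that contrast, and -0.50 for the 5 added genes.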

How the data were processed

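RNA was sequenced from 41 libraries, 1 for each sample of the 15 groups of genotype and day, and grouped by the labels. The authors deposited 1 table of estimated counts per gene symbol, in which 29525 values (2.95%) were not whole. They name the mm10 build and DESeq2, per the submitters' processing notes, while the annotation, aligner and quantifier were not given in the sources used here. Every column matched a sample, and 0 were left without one. Totals of 8581282 to 38240227 per library limit the precision of genes with few counts.

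Counts were rounded, genes were filtered with filterByExpr by group (15204 of 24410 tested, 9206 not), and TMM scaling was applied. A single quasi-likelihood model over the 41 libraries, with a term for each group, was fitted in edgeR 4.0.16 (R 4.3.3), and its common biological coefficient of variation was 0.182. Contrasts were tested two-sided, p-values were adjusted by Benjamini-Hochberg over all genes tested, and the threshold was 0.05. The standard error of a log2 fold change is its size divided by the square root of the F statistic. The code was tested on simulated data.

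The 9 genes and all gene lists were chosen with earlier results of these data known, and Csmd1, Lrp1b, Astn2 and Pcdh9 were chosen on knockout libraries, so they have no p-value in any comparison with those. By rule, the text names the 9 genes, up to 4 genes of a list with the smallest adjusted p in a comparison, and the 5 genes with a mean of at least 2 CPM most like the mean profile over the 15 group means. Some results that this rule would name are not reported here. Gene spans come from GENCODE M21, which matched 95.6% of symbols, and promoter sequences from RefSeq (GRCm38.p6).

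Alternatives were DESeq2 size factors, the DESeq2 Wald test (1.42.0), no low-count filter, a replicate block, only the groups compared, leaving out the 2 libraries of low agreement, leaving out the ribosomal RNA gene Rn45s, and leaving out each library. Where that left 1 library in a group, it was assumed to vary like the others.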

Additional observations from a re-analysis of the deposited data

How the results depend on the processing

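The genes gave 87 medians and counts of calls. Each of 29 comparisons had a median over the 9 and a count of the 5 or 9 tested in either direction. Most were scored as unchanged: 86 with DESeq2 size factors, 85 by the DESeq2 Wald test and 81 with no filter on low counts. The number was 83 in fits to the compared groups alone, and 86 each without the libraries of low agreement and without Rn45s. With single libraries left out, 524 results were scored as unchanged, 38 as moved and 5 as reversed. Many of the counts were 0 with all libraries, and a score of unchanged does not show that a median kept its sign. No scaling or other alternative moved the median of all genes by more than 0.051 on the log2 scale. The 4 groups of 2 libraries and the genes with few counts (Csmd3, and Lrp1b and Csmd1 at day 7) limit what can be told apart here.

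The replicate numbers share only a number: over 32 same-numbered pairs the deviations from group means correlated from -0.028 to 0.080, and in 0 of the 8 comparisons with 3 pairs were all over 0.1. With the replicate block, 87 of the 87 results were scored as unchanged.

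With only the groups compared, the median in Eed against NT at day 7 was -0.52, and the call of Csmd2 between Brd8 and Eed at day 9 left 0. The cause was not tested for these or the following changes. In Ezh2 at day 7, 1 added gene was called lower by DESeq2, without the filter and with only the groups compared. Without the filter, 1 was called higher in Nr6a1 at day 7 and 2 at day 9, 1 lower in Eed than in Ezh2 at day 9, and 1 higher in Brd8 than in Eed at day 11. For the Brd8 effect at day 11 minus day 7, 1 was higher by DESeq2 and without the filter. Between Eed and Ezh2 at day 11, 0 were called lower with DESeq2 size factors, only the groups compared, without the libraries of low agreement and without Rn45s.

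Leaving out 1 library at a time moved medians over these ranges. Against NT, Eed ran from -0.55 to -0.17 at day 7 and from -0.95 to -0.53 at day 9, and Ezh2 from -0.72 to -0.20 at day 7. Brd8 ran from -0.92 to -0.35 at day 7 and from -1.40 to -0.32 at day 9. Nr6a1 ran from 0.12 to 0.32 at day 7, from 0.34 to 0.80 at day 9 and from -0.022 to 0.51 at day 11. From day 7 to day 11, Eed ran from 2.00 to 2.36, Ezh2 from 2.01 to 2.27 and Nr6a1 from 1.46 to 1.98. The effect at day 11 minus day 7 ran from -0.49 to -0.22 in Brd8 and from -0.24 to 0.11 in Nr6a1. Eed against Ezh2 ran from -0.71 to -0.40 at day 9 and from -0.69 to -0.51 at day 11. Brd8 against Eed ran from -0.12 to 0.10 at day 7 (0.14 with all libraries) and from -0.71 to 0.28 at day 9, where it was 0.10 without Eed replicate 1.

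Counts of added genes called ran, with 1 library left out, from 1 to 2 lower in Eed at day 7, 0 to 2 lower in Eed at day 9, 1 to 2 lower in Brd8 at day 11 and 0 to 1 higher in Nr6a1 at day 9. They ran from 0 to 1 higher for the Brd8 effect at day 11 minus day 7, and from 0 to 1 lower in Eed against Ezh2 at days 9 and 11 and in Brd8 against Eed at day 9. In NT, 4 to 5 of the 9 were called higher at day 11 than at day 9.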

Other observations

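Of 11 genes for factors tied to the transcription of long genes, 1 rose and 9 fell in NT from day 7 to day 11, with a median log2 fold change of -0.42. Of all genes, 21.9% rose and 23.3% fell. Top2a, a topoisomerase of dividing cells, fell from 442 ± 7.42 to 140 ± 8.57 CPM (SD, n = 3; log2 fold change -1.66; adjusted p = 1.22e-14, edgeR). Sfpq, which encodes an RNA-binding protein of the paraspeckle, fell by 0.83 on the log2 scale (adjusted p = 1.38e-07). At day 11 Top2a was at 306 ± 32.9 CPM in Eed (1.13 above NT; adjusted p = 2.61e-09) and 283 ± 44.5 in Brd8 (1.02; adjusted p = 3.6e-08), and 0.81 above NT in Ezh2 (adjusted p = 9.98e-06). The list as a whole was near NT at that day: 2 of the 11 were called higher in Eed (median 0.014), 1 in Brd8 (0.050) and 1 in Ezh2 (0.089). Of all genes, 13.3% were called higher in Eed, 10.3% in Brd8 and 5.22% in Ezh2, and 10.6%, 7.48% and 2.70% lower. None of the 11 was called lower by edgeR. In Eed 1 of them was lower by DESeq2 and 1 at an unadjusted p under 0.05 (0 in Brd8 and Ezh2 by either).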
